A study of Sus scrofa with 6 samples.

Results

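The mitochondrial ribosomal protein genes are the nuclear genes MRPL and MRPS, whose products build the ribosome inside mitochondria. They were chosen by name alone, as every gene whose name in the deposited mRNA table is MRPL or MRPS followed by a number and at most 1 letter. This gave 63 of the 22164 genes of the table, 38 of the large subunit (MRPL) and 25 of the small subunit (MRPS), under 62 different symbols. MRPS9 has 2 entries, gene7067 and gene7071, and the sources used here do not say how fragments were shared between them. Porcine preadipocytes, taken from the subcutaneous fat of pigs aged 5 days, were cultured with recombinant human TGF-β1 at 10 ng/mL (TGF-β1 group, 3 samples) or with citric acid at 10 mM as the negative control (NC group, 3 samples), and RNA was collected after 48 h in each. The paper calls the samples of a group biological replicates. The labels give each of the 6 samples a source number of its own without saying whether these are different animals. RNA was measured by sequencing after removal of ribosomal RNA, and each value is an FPKM, the fragments of a gene scaled to its length and to the number of mapped fragments of the sample, so that levels of different genes can be set side by side.

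The mitochondrial ribosome translates the few proteins that are encoded by mitochondrial DNA, all of them subunits of the respiratory chain and of ATP synthase. Its large subunit joins amino acids and holds the exit tunnel of the growing chain, and its small subunit binds and decodes the mRNA. Some of its proteins have counterparts in the bacterial ribosome and others occur only in mitochondria. All of its proteins are made in the cytosol and imported, while its ribosomal RNAs come from mitochondrial DNA. In the pig, a mitochondrial tRNA is built into the large subunit as a structural part. Adipocytes, into which preadipocytes can differentiate, depend on mitochondria for lipid synthesis and fatty acid oxidation.

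The FPKM of all genes summed to 392976 to 404489 in the TGF-β1 samples and to 418531 to 448468 in the NC samples. The relative depth was 0.740 to 0.842 in TGF-β1 samples and 0.778 to 1 in NC samples, estimated from FPKM below 0.5 and set to 1 in NC replicate 1. The tables give no read counts, so the number of fragments behind an FPKM is unknown. The paper reports more raw reads for the TGF-β1 group than for the control group. The estimated depth was the other way round on average, at 0.793 with TGF-β1 and 0.886 in NC, and this conflict was not resolved. All 13 entries of stromal and preadipocyte markers (11 symbols, with PDGFRA, PDGFRB, THY1 and VIM among them) exceeded an FPKM of 1 in every sample. The 6 entries of mature adipocyte markers together reached 1.98 to 3.52 FPKM in TGF-β1 samples and 2.14 to 5.33 FPKM in NC samples. FABP4 of the adipocyte list and DLK1 of the stromal list had no entry, so their levels are unknown. Epithelial markers, with 6 entries, summed to 3.58 to 5.00 FPKM in TGF-β1 samples and to 0.0378 to 0.250 FPKM in NC samples, and 2 of them, KRT5 and KRT8, passed limma's test described below. The 7 macrophage entries summed to 14.7 to 78.7 FPKM in TGF-β1 samples and to 32.1 to 115 FPKM in NC samples, with none called, and 1 of the 7 had a log2 fold change above 0. The 5 endothelial entries summed to 4.303 to 9.20 FPKM in TGF-β1 samples and 5.68 to 13.7 FPKM in NC samples. PECAM1 alone held 4.22 to 8.54 FPKM and 5.57 to 12.9 FPKM of these, and CDH5 had no entry. The 3 muscle entries summed to 447 to 599 FPKM in TGF-β1 samples and 277 to 440 FPKM in NC samples. DES alone held 432 to 583 FPKM and 269 to 425 FPKM of these, and CKM stayed below 0.1 FPKM. MYOD1, MYOG and MYF5 had no entry, so this sum is no measure of muscle cells. The part of other cell types in the changes of the MRP genes was not tested. In bulk RNA, fewer cells of a type and less RNA per cell cannot be told apart.

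Every one of the 63 MRP genes was expressed, with an FPKM above 1 in all 6 samples. Mean levels over the 6 samples ran from 4.15 FPKM for MRPS22 to 108 FPKM for MRPL28, with 7 genes above 50 FPKM and 12 below 10 FPKM. The large subunit held the 3 highest genes. MRPL28 had 100.2, 99.1 and 102 FPKM in the TGF-β1 samples and 110.1, 115 and 121 FPKM in the NC samples, without overlap. MRPL17 had 100.97, 98.8 and 94.3 FPKM with TGF-β1 and 112, 112 and 93.4 FPKM in NC, so its range overlapped that of MRPL28 in both groups. MRPL24, at the mouth of the exit tunnel, followed with 86.4, 85.3 and 73.1 FPKM with TGF-β1 and 104, 92.9 and 84.8 FPKM in NC. These 3 proteins have counterparts in bacteria. The highest genes of the small subunit were MRPS34, MRPS26 and MRPS18B, whose proteins sit at places that the bacterial ribosome leaves empty. MRPS34 had 67.2, 61.9 and 64.5 FPKM with TGF-β1 and 58.2, 66.4 and 65.1 FPKM in NC, and MRPS26 had 47.7, 46.4 and 48.7 FPKM with TGF-β1 and 47.99, 54.3 and 53.8 FPKM in NC. The TGF-β1 and NC values overlapped for MRPS34, and for MRPS26 the highest TGF-β1 value lay above the lowest NC value.

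Levels of the whole set were lower in the TGF-β1 samples, at a sum of 1578 ± 33.7 FPKM against 1746 ± 75.3 FPKM in the NC samples (SD, n = 3 each), and most other expressed genes were lower too. The FPKM of the 63 genes summed to 1599, 1596 and 1539 in the TGF-β1 samples and to 1797, 1782 and 1660 in the NC samples. The sum of each TGF-β1 sample lay below that of each NC sample. As a share of the FPKM of all genes, the set held 0.395%, 0.399% and 0.392% in the TGF-β1 samples and 0.401%, 0.402% and 0.397% in the NC samples, so that these shares overlapped. For the large subunit alone the sums were 1055, 1071 and 1030 FPKM with TGF-β1 and 1222, 1202 and 1114 FPKM in NC. For the small subunit they were 543, 526 and 509 FPKM with TGF-β1 and 575, 580 and 545 FPKM in NC. The groups did not overlap in either sum, although TGF-β1 replicate 1 and NC replicate 3 differed by little in the small subunit. The small-subunit sum divided by the large-subunit sum was 0.515, 0.491 and 0.494 in the TGF-β1 samples and 0.470, 0.483 and 0.490 in the NC samples. These did not overlap, with TGF-β1 replicate 2 and NC replicate 3 almost equal, but sums weigh the highest genes most. Median levels, divided by the median of all genes with an FPKM above 1 in all 6 samples, gave no such shift. For the small subunit they were 1.99 ± 0.153 with TGF-β1 and 2.17 ± 0.101 in NC. For the large subunit they were 2.34 ± 0.0858 and 2.40 ± 0.134 (SD, n = 3 each), and the groups overlapped for both subunits.

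**Figure D1:**
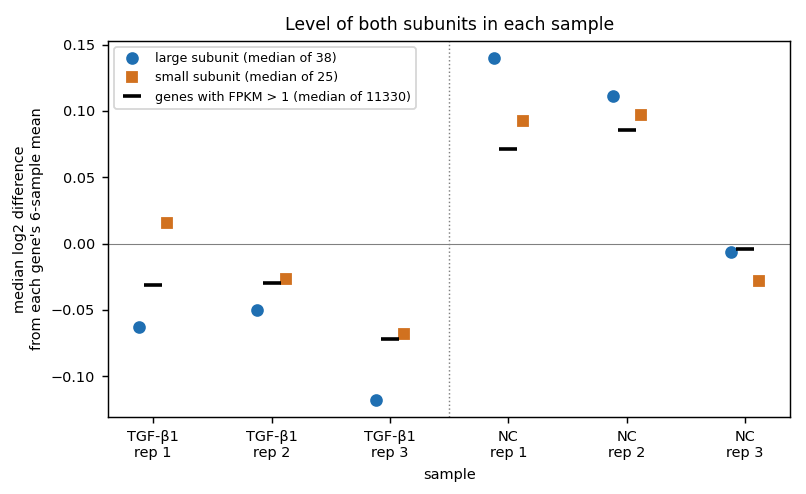
Median over the genes of each subunit of the difference (log2) between a sample and the gene's mean over all 6 samples, for the 3 TGF-β1 and the 3 NC samples. Black dashes give the same for the 11330 genes with an FPKM above 1 in all samples. The large subunit lay at -0.12 to -0.05 in the TGF-β1 samples and at -0.01 to 0.14 in the NC samples, and the black dashes moved the same way.

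Each gene was tested with limma on log2(FPKM + 0.1) in 1 fit over 17708 genes, those past 0.1 FPKM in 3 or more of the 6 samples, with Benjamini-Hochberg adjustment over all of them and the paper's threshold of 0.1. Fold changes are on this scale and are TGF-β1 minus NC. None of the 63 genes passed, where 0.096% of all genes tested did. The lowest adjusted p was 0.411. At an unadjusted p of 0.05, 8 MRP genes were lower with TGF-β1 and 0 were higher. Of the 11330 genes with an FPKM above 1 in all 6 samples, 7.87% were lower and 1.54% higher by that rule, and 0 passed after adjustment. The 95% interval of the change lay within 2-fold in either direction for 58 of the 63 genes, against 89.1% of those 11330 genes. With 3 samples in each group, changes smaller than these intervals were not detectable for single genes.

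The log2 fold changes of the MRP genes were mostly small and below 0. Their median was -0.11, with a middle range (first to the third quartile) of -0.22 to -0.05, and 54 of the 63 were below 0. Among the genes with an FPKM above 1, the median was -0.10, the middle range was -0.21 to 0.02, and 71.0% were below 0. The large subunit had a median of -0.15 with 35 of 38 genes below 0, and the small subunit a median of -0.07 with 19 of 25 below 0. Against the median of the genes with an FPKM above 1, the large subunit lay lower by 0.06 and the small subunit higher by 0.02 on the log2 scale. Of the large-subunit genes, 26 of 38 (68.4%) lay below that median, and of the small-subunit genes, 11 of 25 (44.0%). The difference between the subunits has no test here. The count of MRP genes below 0 and the sign of the small-subunit median depended on the scale of the samples. When the samples were brought to a common median, quantile or total, the median of the genes with an FPKM above 1 moved to between -0.0008 and 0.03, and 29 to 38 of the 63 MRP genes were below 0, while 36 or 37 were below that median. The large-subunit median stayed below 0 under these scalings. When each of the 6 samples was left out in turn, the offset of the large subunit from the median of the genes with an FPKM above 1 was between -0.06 and -0.03, whereas scaling a whole sample, the filters and the choice of moderation cannot move this offset or hardly do. The offset of the small subunit turned to -0.03 without TGF-β1 replicate 1 and to -0.02 without NC replicate 2.

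**Figure D2:**
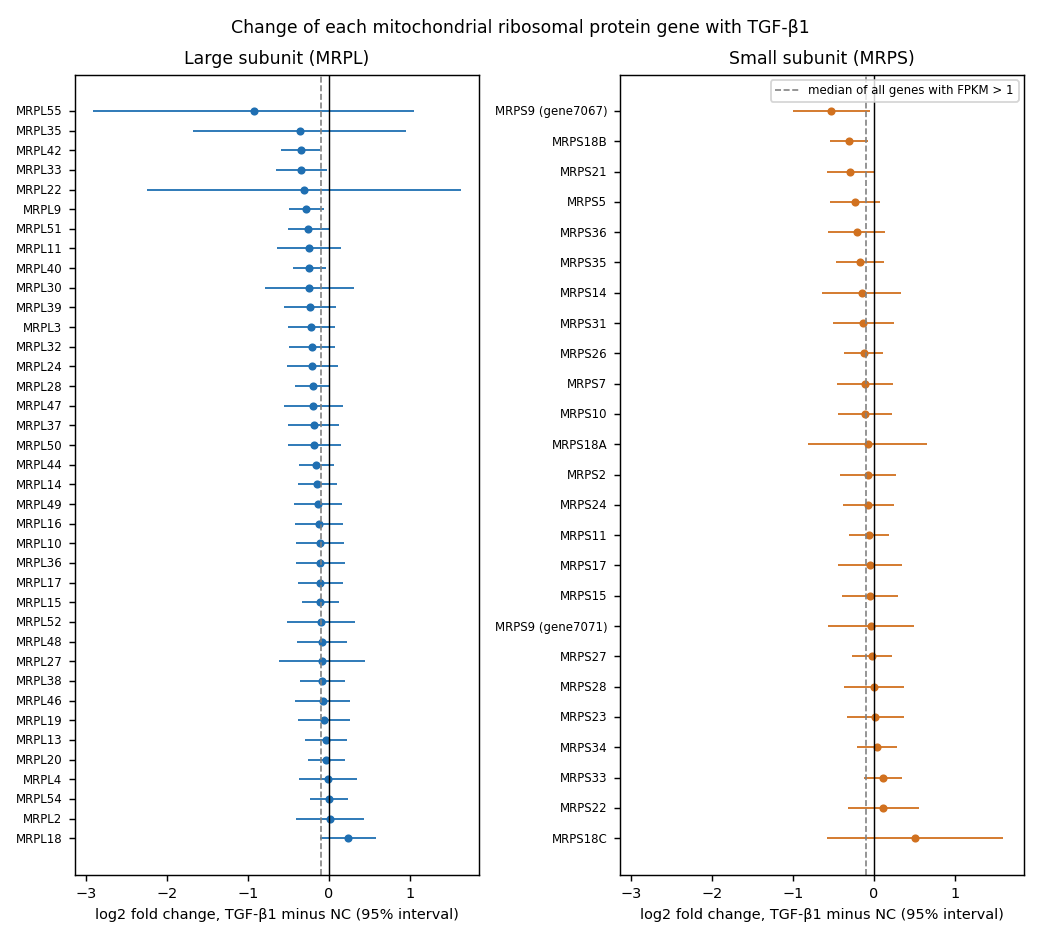
Log2 fold change (TGF-β1 minus NC, x axis) with its 95% interval from limma for each of the 38 large-subunit genes (left) and the 25 small-subunit genes (right), in order of the change. The dashed line is the median of -0.10 of the genes with an FPKM above 1, and most intervals include both it and 0.

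In 12 of the 63 MRP genes all 3 TGF-β1 values lay below all 3 NC values, and in 1 all lay above. This is 19.0% lower and 1.59% higher, where the genes with an FPKM above 1 had 18.1% and 3.04%. By subunit, 8 of 38 large and 4 of 25 small-subunit genes had their TGF-β1 values apart and lower. The share of MRP genes with groups apart was thus near that of expressed genes in general.

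In the large subunit, the genes with groups apart and the lowest unadjusted p coded for both kinds of protein. MRPL42, a protein found only in mitochondria, had 17.9, 19.7 and 18.9 FPKM with TGF-β1 and 25.1, 24.8 and 22.3 FPKM in NC (log2 fold change -0.35, SE 0.10, limma adjusted p = 0.411). Its highest TGF-β1 value lay below the lowest NC value, by slightly less than the range of the NC samples. MRPL33, a small protein with a bacterial counterpart, had 27.3, 29.1 and 24.8 FPKM with TGF-β1 and 36.8, 36.2 and 30.1 FPKM in NC, a log2 fold change of -0.34. Here the highest TGF-β1 value was close to NC replicate 3. MRPL9, also with a bacterial counterpart, had 34.6, 32.3 and 31.8 FPKM with TGF-β1 and 40.8, 39.6 and 39.4 FPKM in NC, a log2 fold change of -0.28 and the most even NC values of this group. MRPL40, which lies in the central protuberance of the large subunit, had 56.6, 57.3 and 55.0 FPKM with TGF-β1 and 67.6, 67.5 and 64.6 FPKM in NC, a log2 fold change of -0.24. MRPL51 had 41.7, 37.1 and 36.5 FPKM with TGF-β1 and 48.05, 46.1 and 43.6 FPKM in NC, a log2 fold change of -0.26. Both are found only in mitochondria. Adjusted p was 0.441 to 0.493 for these last 4 genes (limma), so none was called.

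MRPL18 was the MRP gene whose 3 TGF-β1 values were all above the NC values. Its product is the counterpart of a bacterial protein that binds ribosomal RNA in the central protuberance. MRPL18 had 9.91, 11.7 and 10.5 FPKM with TGF-β1 and 9.88, 7.73 and 9.74 FPKM in NC, and TGF-β1 replicate 1 and NC replicate 1 were almost equal. Its log2 fold change was 0.23, with an SE of 0.14 and a limma adjusted p of 0.614, opposite in sign to most of the large subunit, and it was 0.12 without NC replicate 2.

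In the small subunit, 4 genes had lower TGF-β1 values without overlap. MRPS18B, at a site particular to the mitochondrial ribosome, had 37.2, 38.7 and 38.4 FPKM with TGF-β1 and 48.6, 49.7 and 43.5 FPKM in NC (log2 fold change -0.31, SE 0.10, limma adjusted p = 0.435). MRPS21, with a bacterial counterpart, had 41.3, 35.7 and 33.9 FPKM with TGF-β1 and 48.2, 44.3 and 43.0 FPKM in NC, a log2 fold change of -0.29. MRPS5, which has a counterpart in the bacterial small subunit near the entry of the mRNA, had 6.77, 8.38 and 8.05 FPKM with TGF-β1 and 9.79, 8.42 and 9.01 FPKM in NC, a log2 fold change of -0.23. In MRPS5 the highest TGF-β1 and the lowest NC value were almost equal. The lowest log2 fold change was that of 1 of the 2 entries of MRPS9, a protein whose bacterial counterpart reaches towards the tRNA in the peptidyl site. The entry gene7067 of MRPS9 had 17.9, 11.4 and 15.6 FPKM with TGF-β1 and 23.1, 20.8 and 20.1 FPKM in NC, a log2 fold change of -0.53 (SE 0.19, limma adjusted p = 0.473) that became -0.35 without TGF-β1 replicate 2. The entry gene7071 of MRPS9 had 11.6, 10.8 and 12.2 FPKM with TGF-β1 and 13.9, 13.7 and 8.61 FPKM in NC, with overlapping groups and a log2 fold change of -0.04. Since both entries carry the same symbol, neither value can be taken as the level of the whole gene.

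**Figure D3:**
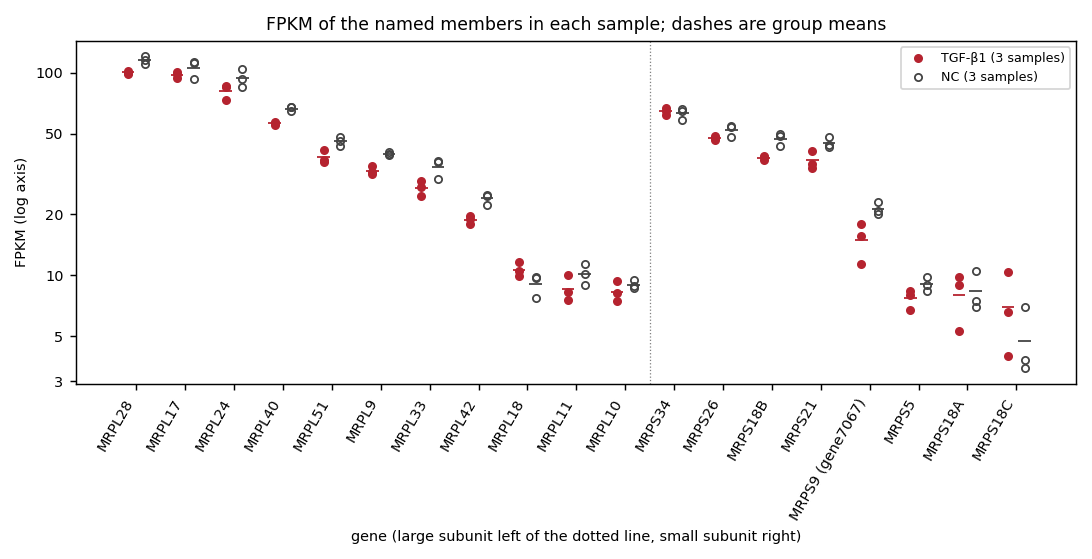
FPKM (log axis) in each of the 3 TGF-β1 samples (filled) and the 3 NC samples (open) for 19 genes, the large subunit left of the dotted line, with short dashes at the group means. MRPL42, MRPL9, MRPL40 and MRPS18B had groups apart, for example 37.2 to 38.7 FPKM with TGF-β1 and 43.5 to 49.7 FPKM in NC for MRPS18B, whereas the values of MRPS34, MRPS18A and MRPS18C were mixed.

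The 3 genes MRPS18A, MRPS18B and MRPS18C descend from 1 bacterial small-subunit protein, and structures of the mammalian ribosome place the product of MRPS18A in the large subunit and the other products at separate sites of the small subunit. MRPS18B was the most expressed of them in every sample. MRPS18A had 8.99, 9.82 and 5.31 FPKM with TGF-β1 and 6.96, 7.51 and 10.6 FPKM in NC, with a log2 fold change of -0.08 (95% interval -0.81 to 0.65). MRPS18C had 4.00, 10.4 and 6.59 FPKM with TGF-β1 and 3.84, 6.99 and 3.496 FPKM in NC, with a log2 fold change of 0.51 (95% interval -0.58 to 1.59) that became 0.17 without TGF-β1 replicate 2 and 0.85 without TGF-β1 replicate 1. For both, samples of 1 group differed by more than the group means did, and the sign of MRPS18A turned to 0.19 without TGF-β1 replicate 3 and to 0.10 without NC replicate 3. In the RefSeq annotation of Sscrofa11.1, MRPS18C overlaps the protein-coding genes ABRAXAS1 and HELQ, and no strand-specific counting is stated in the sources used here, so its reads cannot be told apart from theirs with certainty.

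The stalk of the large subunit recruits the translation factors, and MRPL10 and MRPL11 form its base. MRPL10 had 8.16, 9.34 and 7.45 FPKM with TGF-β1 and 8.63, 9.49 and 8.83 FPKM in NC, a log2 fold change of -0.11. MRPL11 had 8.26, 7.53 and 10.1 FPKM with TGF-β1 and 10.18, 8.97 and 11.4 FPKM in NC, a log2 fold change of -0.24. Both overlapped between the groups. MRPL12, the protein of the stalk that touches the factors themselves, has no entry by its own name, but LOC100624982 of the table is MRPL12 in RefSeq. This entry had 34.0, 36.7 and 31.4 FPKM with TGF-β1 and 46.9, 46.3 and 45.3 FPKM in NC. Its groups were far apart relative to their spread, at a log2 fold change of -0.44 (SE 0.10, limma adjusted p = 0.348), the lowest unadjusted p, at 0.00511, of all entries that carry or map to an MRP symbol. It too was not called.

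In all, 8 entries under LOC numbers map to MRP symbols in the RefSeq table, from which names alone were taken. They cover 7 symbols that had no entry by name, and a further entry of MRPL27. Another 8 of the 77 MRP symbols of RefSeq were not found and are not analysed here. None of the 8 entries was called. The entries of MRPL1, MRPL43, MRPL45, MRPL53 and MRPS30 had log2 fold changes of -0.12, -0.02, -0.02, -0.04 and -0.11, and the groups overlapped in each of these. MRPS25, a protein of the small subunit found only in mitochondria, had 9.82, 8.28 and 8.59 FPKM with TGF-β1 and 6.83, 8.15 and 0.465 FPKM in NC. NC replicate 3 was far below the rest, the other NC values lay just under or below those of TGF-β1, and its log2 fold change of 1.49 has a 95% interval of -1.20 to 4.19. The second entry of MRPL27 had 17.5, 12.1 and 15.1 FPKM with TGF-β1 and 7.11, 15.8 and 11.4 FPKM in NC, whereas the entry named MRPL27 had 18.2, 13.5 and 15.7 FPKM with TGF-β1 and 20.9, 16.5 and 13.2 FPKM in NC. Fragments shared between these 2 entries were not resolved here.

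Split by kind of protein, the 24 large-subunit genes with a bacterial counterpart had a median log2 fold change of -0.13, with 22 below 0, and the 13 large-subunit genes found only in mitochondria had a median of -0.16, with 12 below 0. In the small subunit, the 14 entries with a bacterial counterpart had a median of -0.07, with 12 below 0. The 9 genes classed as found only in mitochondria had a median of -0.02, with 5 below 0. MRPS18B, at -0.31, was counted among these 9, although it descends from a bacterial protein and only its site is particular to the mitochondrial ribosome. MRPS18A, MRPS36 and MRPL55 were left out of this split, the last 2 because their class is less certain. Of the genes around the exit tunnel, MRPL22, MRPL24, MRPL44 and MRPL47 were present by name. All 4 had values below 0, with a median of -0.20, where 71.0% of the genes with an FPKM above 1 were below 0. The value of MRPL22, -0.31, had an SE of 0.77. Entries under LOC numbers, MRPL45 at -0.02 among them, were not counted. MRPL44 is a protein with a fold related to RNase III, and its groups lay apart at 10.95, 10.8 and 10.4 FPKM with TGF-β1 and 12.1, 12.3 and 11.5 FPKM in NC. Its log2 fold change was -0.16 (adjusted p = 0.590 from limma). MRP genes that cause combined oxidative phosphorylation deficiency when mutated in humans were 9 of 12 listed, with a median of -0.07 and 5 below 0. These 9 were found by name. Entries under LOC numbers, MRPL12 at -0.44 and MRPS25 at 1.49 among them, were not counted. The 32 genes at or above the median level had a median of -0.14, and the 31 below it a median of -0.08.

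MRPS11 and MRPL46 are next to each other in the RefSeq order of genes, 1 from each subunit. MRPS11 had 28.7, 27.4 and 26.9 FPKM with TGF-β1 and 30.0, 30.2 and 26.4 FPKM in NC, a log2 fold change of -0.06. MRPL46 had 11.9, 12.3 and 9.32 FPKM with TGF-β1 and 12.2, 11.2 and 11.7 FPKM in NC, a log2 fold change of -0.08. Neither differed between the groups beyond its spread.

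Most MRP genes were steady over all 6 samples. In 50 of the 63, the highest sample was at most 1.5 times the lowest, and in 5 it was more than 2 times, against 12.6% of the genes with an FPKM above 1. These 5, named after their values were seen, were MRPL22, MRPL35, MRPL55, MRPS18C and the entry gene7067 of MRPS9, and they were also the 5 whose 95% intervals reached beyond 2-fold. MRPL55 had 3.02, 22.0 and 18.2 FPKM with TGF-β1 and 24.5, 22.4 and 15.6 FPKM in NC. Its log2 fold change of -0.93, the lowest of all MRP genes, came from TGF-β1 replicate 1 and was -0.03 without it. MRPL22, a protein that lines the exit tunnel, had 2.67, 3.54 and 13.2 FPKM with TGF-β1 and 3.36, 5.45 and 13.2 FPKM in NC. Replicate 3 of both groups was high and the others low, and the log2 fold change of -0.31 turned to 0.22 without NC replicate 3 and to 0.13 without TGF-β1 replicate 1, and was -0.997 without TGF-β1 replicate 3. The summed macrophage markers were also highest in replicate 3 of each group, at 78.7 FPKM with TGF-β1 and 115 FPKM in NC. Replicate 2 did not match in this way. CD163, 1 of these markers, had 1.70, 12.5 and 21.8 FPKM with TGF-β1 and 8.21, 25.3 and 32.6 FPKM in NC, while MRPL22 was low in replicate 2 of both groups. The part of macrophages in the values of MRPL22 was not tested. MRPL35 had 8.85, 25.03 and 11.2 FPKM with TGF-β1 and 9.94, 24.8 and 21.4 FPKM in NC, with replicate 1 low and replicate 2 high in each group, and its log2 fold change of -0.36 ran from -0.80 to -0.05 when single samples were left out.

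Single samples also took unequal shares of the extremes. TGF-β1 replicate 3 held the lowest of the 6 values for 26 of the 63 genes (41.3%) and NC replicate 1 the highest for 27 (42.9%). Among the genes with an FPKM above 1 these shares were 26.5% and 28.9%. NC replicate 3 held the lowest value for 8 MRP genes (12.7%) and the highest for 4 (6.35%), where these shares were 19.4% and 17.4% among the genes with an FPKM above 1.

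Other parts of the same machinery were set beside the MRP genes. Of the ribosomal proteins that bear other names, DAP3, PTCD3, CHCHD1 and GADD45GIP1 were found and 0 of the 4 were called. PTCD3, a protein of the small subunit near the entry of the mRNA, had 14.95, 16.5 and 15.1 FPKM with TGF-β1 and 17.3, 17.6 and 16.6 FPKM in NC, with a log2 fold change of -0.15 and groups narrowly apart. The median of the 4 was 0.00. Of the 16 translation factors and mRNA-handling proteins found, 0 were called, 13 had log2 fold changes below 0 and their median was -0.12. TSFM, the exchange factor of the mitochondrial elongation factor TUFM, had 13.1, 10.5 and 10.9 FPKM with TGF-β1 and 9.84, 8.60 and 7.90 FPKM in NC. All its TGF-β1 values were above those of NC, at a log2 fold change of 0.38 (SE 0.14, limma adjusted p = 0.477). SLIRP, which binds mitochondrial mRNAs, was the most expressed of this list, with 72.1, 76.1 and 71.2 FPKM with TGF-β1 and 86.2, 78.4 and 77.6 FPKM in NC. Among 20 assembly factors found, 0 were called, 10 were below 0 and the median was 0.00. METTL17, an assembly factor of the small subunit, had the lowest unadjusted p of that list, with 5.25, 4.73 and 5.18 FPKM with TGF-β1 and 5.96, 6.71 and 5.97 FPKM in NC. GTPBP10, an assembly factor of the large subunit, was the most expressed of them at 32.8 ± 2.24 FPKM with TGF-β1 and 35.9 ± 5.63 FPKM in NC (SD, n = 3 each). The 8 regulators of mitochondrial biogenesis found had a median of -0.04 with 0 called. ESRRA, a nuclear receptor that activates mitochondrial genes, was the most expressed of these at 19.1 ± 2.31 FPKM with TGF-β1 and 21.4 ± 0.452 FPKM in NC (SD, n = 3 each). PPARGC1B, a coactivator of ESRRA, had the lowest unadjusted p of these, at 0.323, 0.698 and 0.633 FPKM with TGF-β1 and 0.814, 0.654 and 0.939 FPKM in NC.

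The mitochondrially encoded genes, the templates that this ribosome translates, had uneven values in these tables, so that their median log2 fold change of 0.21 does not describe a common change. Of the 11 tested, 1 was called, ATP6, a subunit of ATP synthase, with 24.7, 34.3 and 38.8 FPKM with TGF-β1 and 0.0858, 0.0933 and 0.133 FPKM in NC (log2 fold change 7.31, adjusted p = 0.00063 from limma). COX1, the most expressed of them, had 4268, 4185 and 4051 FPKM with TGF-β1 and 4928, 4923 and 3828 FPKM in NC, a log2 fold change of -0.12 with overlapping groups. Other genes of this list, named after their values were seen, jumped between samples of 1 group. CYTB, a subunit of complex III, had 0.928, 34.98 and 39.3 FPKM with TGF-β1 and 0.468, 0.657 and 0.478 FPKM in NC. COX3, a subunit of complex IV, had 70.9, 149.8 and 145.8 FPKM with TGF-β1 and 0.351, 109.4 and 82.9 FPKM in NC. ND6, a subunit of complex I, had 0.0940, 129 and 0.0102 FPKM with TGF-β1 and 0.0548, 0.0708 and 0.0813 FPKM in NC. ATP8, whose gene overlaps ATP6 in mammalian mitochondrial DNA, stayed between 0.00278 and 0.0170 FPKM with TGF-β1 and between 0.0256 and 0.0494 FPKM in NC. Reads of the overlapping ATP6 and ATP8 cannot be told apart with certainty, so the value of ATP6 is given as listed.

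Beside the sets most like it, the median of -0.11 of the MRP genes was nearer to 0 than that of the cytosolic ribosomal proteins and close to that of the nuclear subunits of the respiratory chain. The 73 cytosolic ribosomal protein genes tested had a median log2 fold change of -0.27, with 69 below 0 and 62 whose TGF-β1 values all lay below those of NC. The 60 nuclear respiratory chain subunits had a median of -0.14, with 52 below 0 and 27 apart and lower. The share apart and lower was 84.9% of the cytosolic and 45.0% of the respiratory chain genes. It was 19.0% of the MRP genes and 18.1% of the genes with an FPKM above 1. None of the cytosolic or respiratory chain genes was called either. At an unadjusted p of 0.05 (limma), 48 of the cytosolic (65.8%) and 8 of the respiratory chain genes (13.3%) were lower. By that rule 12.7% of the MRP genes and 7.87% of the genes with an FPKM above 1 were lower. RPL27A, a cytosolic ribosomal protein, had 374, 599 and 456 FPKM with TGF-β1 and 994, 919 and 862 FPKM in NC, the lowest unadjusted p of its set. NDUFS5, a subunit of complex I, had 83.5, 89.5 and 87.3 FPKM with TGF-β1 and 113, 112 and 109.9 FPKM in NC, the lowest unadjusted p of its set. The highest genes of these sets were RPLP1 at 3960 ± 155 FPKM with TGF-β1 and 4467 ± 143 FPKM in NC, and ATP5B at 396 ± 6.71 FPKM with TGF-β1 and 415 ± 9.72 FPKM in NC (SD, n = 3 each). The median mean level was 1271 FPKM for cytosolic ribosomal proteins, 77.1 FPKM for respiratory chain subunits and 19.6 FPKM for the MRP genes. The differences between these sets were not tested.

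**Figure D4:**
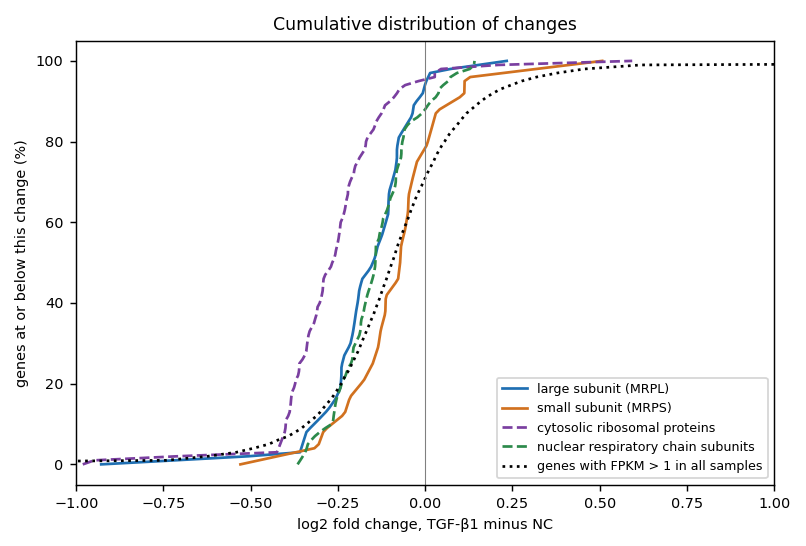
Share of genes (y axis, percent) with a log2 fold change (TGF-β1 minus NC, x axis) at or below each value, for large-subunit and small-subunit MRP genes, cytosolic ribosomal proteins, nuclear respiratory chain subunits, and all genes with an FPKM above 1, of which a few lie beyond the axis. The curve of the cytosolic ribosomal proteins lies to the left, with a median of -0.27, and the curves of both MRP subunits, with medians of -0.15 and -0.07, cross that of all expressed genes.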

How the data were processed

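RNA was depleted of ribosomal RNA before sequencing. The authors filtered the reads, used Sus scrofa 10.2 as the genome and deposited FPKM values from StringTie 1.3.1 (version also in the submitters' processing notes), 1 for each gene and sample. The aligner, and whether strand was used in counting, are "not given in the sources used here". As FPKM are not counts, a test on the log scale was chosen. The lncRNA tables were not used.

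Samples were grouped by their titles and joined by gene ID, and limma 3.58.1 (R 4.3.3, lmFit, then eBayes at its defaults) was applied to log2(FPKM + 0.1). The fit was tested on simulated data with independent noise and planted changes far larger than those of the MRP genes. It therefore does not show how the fit handles changes of their size. P-values measure the spread between these samples, which may be technical. Python 3.11.15 and matplotlib 3.10.9 served for summaries and figures. LOC numbers were paired with symbols through RefSeq (Sscrofa11.1). Relative depth was the most frequent ratio between samples among FPKM below 0.5.

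The members and the lists were chosen with earlier results of these data known. The rule for genes named with values in every sample took genes called, up to 5 genes of each subunit and direction whose groups did not overlap (by lowest unadjusted p), the 3 highest genes of each subunit, genes with a mean FPKM below 1 (there were 0), the MRPS18 paralogs and the stalk. MRPL22, MRPL35, MRPL55, MRPL44, MRPL27, MRPS11, MRPL46, the second entry of MRPS9, the LOC entries and CYTB, COX3, ND6 and ATP8 were added after their values were seen. From the other lists, the genes called, the highest mean and the lowest unadjusted p were named. Alternatives were other pseudocounts (1 and 0.01), other filters (none, or mean FPKM not below 1), quantile, median-ratio and total scaling, a trended and robust fit, the replicate number as a block, an adjusted p of 0.05, MRPS18A counted in the large subunit, and leaving out each sample. Adding the LOC entries to the set was an alternative chosen after seeing the data.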

Additional observations from a re-analysis of the deposited data

How the results depend on the processing

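No MRP gene was called under any alternative tried (limma), also at an adjusted p of 0.05 and with the LOC entries, while 0 to 9 had an unadjusted p below 0.05 and the lowest adjusted p ran from 0.233 (trended and robust fit) to 0.792 (without NC replicate 2). Over all genes the number called ran from 3 to 49. Rescaling the samples moved the medians. For the large subunit the median log2 fold change became -0.0616 with quantile normalization, -0.0540 with median-ratio scaling and -0.0217 with scaling to the same total. For the small subunit it turned to 0.0243, 0.0237 and 0.0558 in the same order, and for the genes with an FPKM above 1 it became -0.000807, 7.56e-05 and 0.0319. At an unadjusted p of 0.05, 1 MRP gene was lower and 0 higher with quantile normalization, 2 and 0 with median-ratio scaling, and 1 and 1 with the same total. Leaving out each sample gave medians of -0.18 to -0.11 for the large subunit, -0.13 to -0.05 for the small subunit and -0.12 to -0.08 for the genes with an FPKM above 1. The filters, the trended and robust fit and the block leave the fold changes of the 19 named genes as they are. Under the other 11 alternatives, 201 of their 209 values kept their sign and 8 did not. The other pseudocounts, which are among these, move genes at such levels little, and no sign changed under them. With scaling to the same total, MRPL10 turned to 0.0129, MRPL17 to 0.0238, MRPS26 to 0.00156 and MRPS18A to 0.0496. MRPS18A was also above 0 with median-ratio scaling (0.0175), without TGF-β1 replicate 3 (0.19) and without NC replicate 3 (0.10), in a range of -0.244 to 0.19 over the left-out samples. MRPS34 turned to -0.0269 without NC replicate 1, in a range of -0.0269 to 0.0685. The cause was not tested. The replicate numbers were not taken to pair the samples in the main fit. Deviations of same-numbered samples from their group means correlated across 11330 genes at 0.416, 0.0243 and 0.324 for replicates 1, 2 and 3. For differently numbered samples these correlations ran from -0.381 to 0.0908. Deviations from a group mean cancel out within the group, so these correlations are tied to each other and the genes are not independent. Whether replicates 1 and 3 shared a source across the groups was not tested. With the replicate number as a block, 0 MRP genes and 3 genes in all were called, and 7 MRP genes had an unadjusted p below 0.05. With 3 samples in each group and FPKM alone, changes below 2-fold were at the limit of what single genes can show.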
